A study of Mus musculus with 24 samples.

Results

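Keratins, claudins and a small set of epithelial and mesothelial genes were followed through mouse astrocytes from 3 origins. The set held the protein-coding genes with a Krt or Cldn symbol followed by a number, without Cldn11 of the myelin sheath, and 7 single genes (Ivl, Msln, Upk3b, Epcam, Sfn, Gprc5a and Wt1). These were 78 genes, of which 49 were keratins and 22 claudins, out of 49671 genes counted and 21811 protein-coding genes. The symbols were chosen with levels from these libraries known, so the levels of the 78 genes and their differences between groups are described and not tested. Only 33 of the 78 passed the filter on low counts, and 10 had no count in any library.

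Keratins are the intermediate filaments of epithelia and are built as pairs of a type I and a type II chain. Krt8 with Krt18 is the pair of simple, single-layered epithelia, whereas Krt1 with Krt10 marks the differentiating layers of the epidermis. Claudins are the membrane proteins that form the strands of tight junctions, where some seal the gap between cells and others form ion-selective pores. In the brain, Cldn5 is the claudin of the endothelium, Cldn2 is known from the choroid plexus and Cldn10 from astrocytes. The mesothelium, which lines body cavities, combines simple keratins with Msln, Upk3b and Wt1.

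The study asked how astrocytes differ with cell origin, age and culture, and used 24 RNA-seq libraries in 6 groups of 4. NSCs were neural stem cells derived from 1 embryonic stem cell line of C57BL/6N mice. They were grown with FGF and EGF (20 ng/ml each) to passage 50 to 60. AGES were astrocytes made from these NSCs with 20 ng/ml BMP4 for 3 to 5 days, in medium for which FGF and EGF are not named. The other groups were astrocytes sorted with magnetic beads for the surface antigen ACSA-2 from the brains of C57BL/6J mice, at 4 to 8 days of age (neoAC) or 100 to 140 days (AdAC). They were frozen directly (neoAC direct, AdAC direct) or after 7 to 10 days of culture (neoAC CellC, AdAC CellC). A replicate was a separate isolation from 2 pooled mice or, for NSCs and AGES, a separate culture of the same line. No treatment or allele distinguished the primary groups beyond age and culture, but different dissociation kits were used for the 2 ages. Debris and red blood cell removal is named only for adult brains. Neonatal isolations used cerebral tissue without meninges, and removal of meninges is not named for adult brains. The olfactory bulb and cerebellum were removed for direct adult isolation. Strain and origin cannot be told apart in comparisons of NSCs or AGES with the primary groups. Libraries held 27904126 to 37997368 counts on genes. Levels are counts per 1000000 counts (CPM) after TMM scaling, as mean ± SD of 4 libraries, and values in a series are given in the order of replicates 1 to 4.

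The labelled cell type was checked with 9 astrocyte markers. Their summed level was 51718 to 56804 CPM in AGES, 19097 to 22499.7 CPM in neoAC direct, 14052 to 14762 CPM in AdAC direct, 7022 to 8231 CPM in neoAC CellC, 868 to 1322 CPM in AdAC CellC and 1643 to 2022 CPM in NSCs. The sum in AdAC CellC was thus below that in the NSCs. This holds for the sum and not for each marker. Of the 9 markers, 8 had a mean of at least 10 CPM in AdAC CellC and 7 in NSCs. Markers of other cells also differed: 6 oligodendrocyte markers summed to 23482 to 26457 CPM in AdAC direct and 3861 to 10037 CPM in AdAC CellC, against at most 151 CPM in any library of the other 4 groups. The 11 markers of leptomeningeal fibroblasts summed to 1117 to 1598 CPM in AdAC CellC and to 109.8 to 126 CPM in AdAC direct. Collagens made up most of this sum. In replicate 3 of AdAC CellC, Col1a1 was at 866 CPM, Col1a2 at 435 CPM and Col3a1 at 102 CPM. Slc13a4 was next at 24.6 CPM, and Dcn was at 9.35 CPM. In these bulk libraries, fewer cells of a type and less RNA per cell cannot be told apart. In AdAC CellC, replicate 3 stood apart in many of the genes below, and in neoAC direct, replicate 2 was the highest in Cldn5. For genes of the set, fold changes and ratios that these libraries raise are given with and without them. Outside the set, this was done only for the fold change of Cdh1 in adult culture.

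The word mesothelial in the choice of genes had little ground in the markers. Of 8 further mesothelial markers, Upk1b, Muc16 and Bnc1 were at or under 0.466 CPM in every library, and the sum of all 8 in AdAC CellC was 3.64 to 4.87 CPM. Lrrn4 and Gata4 were at the floor of 3 counts there. The sum was higher in NSCs (40.5 to 84.6 CPM), where it came mostly from Tbx18 and Gata4. Among the single genes, Upk3b had a group mean of at most 0.288 CPM and Wt1 reached 1 CPM only in AGES, while Msln was high only in AdAC CellC. The genes are therefore called by name below.

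Of the 78 genes, 29 had a mean of at least 1 CPM in at least 1 group, and 17 of these 29 had their highest mean in AdAC CellC. These 17 were Krt8, Krt18, Krt7, Krt17, Krt19, Krt80, Krt14, Cldn4, Cldn1, Cldn6, Cldn3, Cldn7, Gprc5a, Msln, Sfn, Ivl and Epcam. AGES held the highest mean of Cldn2, Cldn9, Krt10 and Wt1, AdAC direct that of Cldn10, Cldn14 and Krt15, neoAC direct that of Cldn5, Krt1 and Krt28, and neoAC CellC that of Cldn12 and Cldn19. None of the 29 was highest in NSCs. Genes with a mean of at least 1 CPM numbered 2 in NSCs (Cldn12 and Krt10), 6 in AGES, 12 in neoAC CellC, 12 in neoAC direct, 13 in AdAC direct and 24 in AdAC CellC. The genes were chosen with these levels known, and the same counts over all genes are not given. Nothing is therefore read from how many genes were highest or present in a group. The summed level of the 49 keratins was 5.83 to 8.21 CPM in NSCs, 8.61 to 9.64 CPM in AGES, 14.8 to 20.8 CPM in neoAC direct, 14.1 to 21.8 CPM in neoAC CellC, 46.5 to 51.0 CPM in AdAC direct and 111 to 255 CPM in AdAC CellC.

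**Figure D1:**
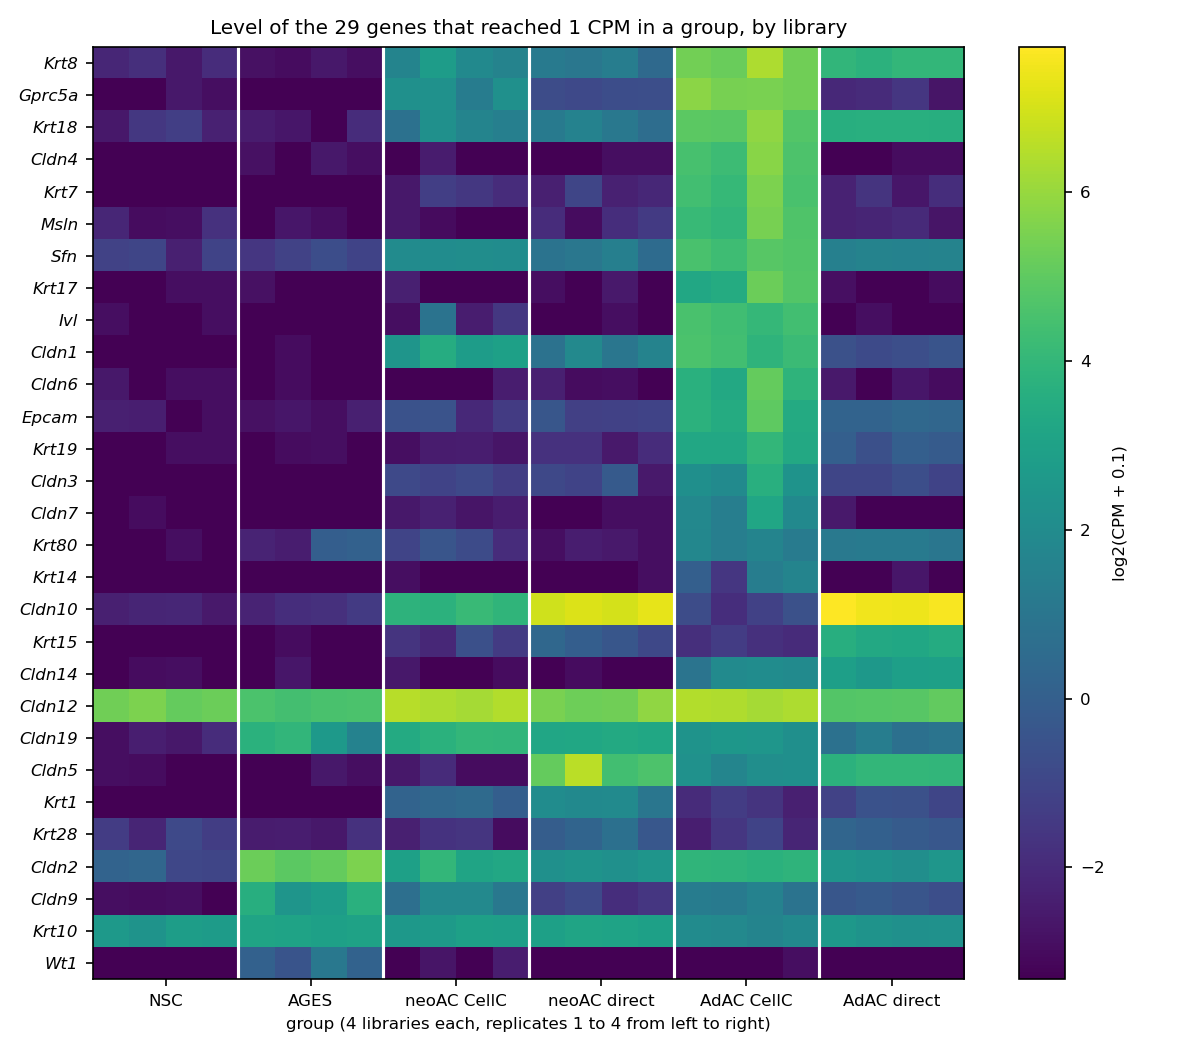
Level of the 29 genes that reached 1 CPM in a group, as log2(CPM + 0.1) by color, in the 24 libraries (columns, 4 per group, replicates 1 to 4 from left to right). The upper 17 rows are highest in AdAC CellC, where the third column is brighter than its neighbours for Krt8, Krt18, Cldn4, Krt7, Msln, Cldn6 and Epcam, while Cldn12 and Krt10 are present in all groups.

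In cultured against directly isolated adult astrocytes, 22 of the 33 genes tested in the fit lay past the threshold of the edgeR test as higher and 8 as lower, where 38.8% and 39.2% of all 19691 genes did. The median log2 fold change of the 33 was 1.80, and that of all genes 0.00. Since the genes were chosen with these levels known, nothing is read from these counts. The claudins gave 10 higher, 3 lower (Cldn10, Cldn5 and Cldn14) and 1 not past the threshold (Cldn15). The keratins gave 7 higher (Krt8, Krt18, Krt7, Krt17, Krt19, Krt20 and Krt24), 5 lower (Krt10, Krt15, Krt1, Krt28 and Krt222) and 1 not past it (Krt80).

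Among the keratins, Krt8 and Krt18 of simple epithelia had the highest levels in AdAC CellC. Krt8, the type II chain of that pair (chr15:101996698-102004482, GRCm38, minus strand), was at 41.4, 36.1, 82.7 and 40.4 CPM in AdAC CellC. In AdAC direct it was at 15.3, 13.7, 16.0 and 15.6 CPM. The lowest cultured library lay above all direct ones, and replicate 3 was above the other cultured libraries. The log2 fold change was 1.73 ± 0.23 (SE), and 1.39 without replicate 3 of AdAC CellC.

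Its partner Krt18, the type I chain, lies in the neighbouring gene (chr15:102028180-102032027, plus strand), and replicate 3 was again the highest. It was at 30.9, 29.2, 59.6 and 27.4 CPM in AdAC CellC and at 12.1, 12.4, 12.4 and 11.9 CPM in AdAC direct. The groups did not overlap, and the log2 fold change was 1.59 ± 0.26, or 1.27 without replicate 3. Per kilobase of exon, the level of Krt8 over that of Krt18 was 0.908 to 1.08 in the AdAC CellC libraries and 0.807 to 0.961 in AdAC direct, so both chains were at like levels. In neoAC direct, where both were low, the ratio was 0.506 to 0.866. Reads of near-identical copies cannot be separated here, although the one Krt8 pseudogene in the table held only 62 counts in all libraries together.

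The upstream sequences of 6 of the genes that were high in AdAC CellC are shown, because Krt8, Krt18, Cldn4 and Epcam stood apart in replicate 3 of that group and Ivl and Sfn did not. They are the bases before the RefSeq start (GRCm38.p6), 5′ to 3′ on the strand of the gene, and end where the Gencode gene model begins. Capitals mark matches to 4 motifs searched on both strands, namely the AP-1 motif TGANTCA, the grainyhead-like (GRHL) motif AACNNGTT, the TEAD motif GGAATG and the SP/KLF motif GGGCGG, and to TATAAA on the strand of the gene. None of these matches overlapped another in the sequences shown.
Krt8 (chr15:102004483-102004592, minus strand): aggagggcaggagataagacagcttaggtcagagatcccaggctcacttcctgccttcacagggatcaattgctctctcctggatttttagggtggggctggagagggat
Krt18 (chr15:102027966-102028179, plus strand): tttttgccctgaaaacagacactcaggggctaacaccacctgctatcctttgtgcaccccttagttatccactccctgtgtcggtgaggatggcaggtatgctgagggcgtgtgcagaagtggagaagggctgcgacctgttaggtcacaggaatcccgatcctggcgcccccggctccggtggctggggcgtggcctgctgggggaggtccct
Cldn4 (chr5:134946935-134947184, minus strand): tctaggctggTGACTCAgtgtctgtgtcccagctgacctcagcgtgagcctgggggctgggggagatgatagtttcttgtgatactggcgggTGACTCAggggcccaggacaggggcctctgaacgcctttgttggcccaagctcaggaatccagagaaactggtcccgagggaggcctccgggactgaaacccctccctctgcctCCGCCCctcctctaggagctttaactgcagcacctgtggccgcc
Epcam (chr17:87635729-87635978, plus strand): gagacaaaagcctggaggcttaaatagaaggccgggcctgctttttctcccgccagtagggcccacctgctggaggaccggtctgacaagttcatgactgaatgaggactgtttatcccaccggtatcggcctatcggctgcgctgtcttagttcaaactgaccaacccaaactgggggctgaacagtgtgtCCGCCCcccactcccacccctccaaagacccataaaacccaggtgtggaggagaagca
Ivl (chr3:92573736-92573985, minus strand): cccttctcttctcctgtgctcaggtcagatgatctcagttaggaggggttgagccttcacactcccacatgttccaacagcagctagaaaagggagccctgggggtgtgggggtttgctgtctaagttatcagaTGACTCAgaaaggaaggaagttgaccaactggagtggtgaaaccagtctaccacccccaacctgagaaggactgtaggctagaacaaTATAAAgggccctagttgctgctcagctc
Sfn (chr4:133602169-133602418, minus strand): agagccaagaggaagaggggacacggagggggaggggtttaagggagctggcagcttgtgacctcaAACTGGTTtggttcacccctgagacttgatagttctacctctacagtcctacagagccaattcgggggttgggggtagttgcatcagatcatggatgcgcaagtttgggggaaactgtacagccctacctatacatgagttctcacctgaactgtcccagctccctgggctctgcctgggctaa

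RefSeq held a promoter for 57 of the 78 genes and for 20 of the 29 named here. Over the 250 bases before the start, AP-1 motifs were found in 2 of the 20 (Cldn4 with 2 matches and Ivl with 1), against 6.75% of 32851 promoters. The GRHL motif was found in Cldn5 and Sfn (3.64% of all promoters) and the TEAD motif in Cldn2, Cldn7 and Krt14 (12.6%). SP/KLF motifs were found in 11 of the 20, 9 of them claudins, against 32.7% of all. Of the sequences shown, only that of Ivl held TATAAA, which began 29 bases before the start, and those of Krt8 and Krt18, which are shorter at 110 and 214 bases against 250 for the rest, held none of the motifs. Such a match is a string of letters and not a measured site.

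Further type I and type II chains were low outside AdAC CellC. Krt7, a type II chain of simple and ductal epithelia, was at 20.5, 16.6, 47.1 and 23.1 CPM there and at 0.0594 to 0.216 CPM in AdAC direct, a ratio of means of 194, or 146 without replicate 3 of AdAC CellC. Krt19, a type I chain of simple epithelia, was at 9.67, 9.62, 15.6 and 10.1 CPM against 0.923, 0.556, 0.921 and 0.790 CPM, a ratio of 14.1, or 12.3 without that library. Krt17, known from stressed and wounded epidermis, was at 9.61, 10.9, 37.6 and 27.3 CPM. In AdAC direct it had 2 counts in all, so that its ratio was 1384 (95% counting interval 383 to 11429), or 1034 (286 to 8537) without replicate 3. Replicates 3 and 4 were both high in Krt17, and Krt14, the basal keratinocyte chain, was also highest in these replicates, at a lower level (0.921, 0.233, 2.47 and 3.07 CPM). Krt14, Krt16 and Krt17 are close paralogs whose reads may be shared.

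Cldn4, Cldn3 and Cldn7, claudins of many epithelia, were likewise higher in AdAC CellC. Cldn4 (chr5:134945119-134946934, minus strand) was at 22.6, 18.7, 54.2 and 24.6 CPM in AdAC CellC and had 2 counts in the 4 libraries of AdAC direct. The ratio of means was 1946 (95% counting interval 539 to 16068), where the interval covers counting error only, and 1424 (394 to 11760.3) without replicate 3. Its neighbour Cldn3 was at 4.36, 3.79, 12.5 and 5.06 CPM against 0.367 to 0.535 CPM in AdAC direct, and Cldn7 was at 3.50, 2.54, 9.03 and 3.72 CPM against at most 0.0710 CPM. In all 3 of these claudins replicate 3 was the highest library of AdAC CellC, and the groups did not overlap.

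Cldn6, a claudin of embryonic epithelia, was at 12.9, 10.1, 34.4 and 14.4 CPM in AdAC CellC and at 0 to 0.0710 CPM in AdAC direct (log2 fold change 8.72 ± 0.54, or 8.21 without replicate 3). Its neighbour Cldn9, whose gene runs towards it on the opposite strand, was at 2.39, 2.19, 2.84 and 1.74 CPM in AdAC CellC and 0.536 to 0.772 CPM in AdAC direct. The neighbours differed across groups, since Cldn9 was highest in AGES, where Cldn6 had 1 count in all. Cldn1, the main barrier claudin of the epidermis, was at 24.3, 20.5, 14.2 and 18.5 CPM against 0.568, 0.463, 0.535 and 0.621 CPM, with replicate 3 as the lowest cultured library. The ratio was 35.5.

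The single genes gave some of the widest differences. Gprc5a, an orphan G protein-coupled receptor of epithelia, was at 54.8, 44.0, 44.7 and 39.5 CPM in AdAC CellC and at 0.142, 0.154, 0.238 and 0.0564 CPM in AdAC direct (log2 fold change 8.25 ± 0.29). Msln, the surface protein mesothelin, was at 17.1, 15.2, 43.3 and 25.5 CPM against 0.0564 to 0.149 CPM (log2 fold change 7.82 ± 0.45, or 7.44 without replicate 3). Epcam, an epithelial adhesion molecule, was at 13.7, 10.9, 31.2 and 10.8 CPM against 1.03, 1.05, 1.22 and 1.16 CPM (log2 fold change 3.90 ± 0.34, or 3.41). For these 3 genes no cultured library overlapped a directly isolated one.

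Ivl, the cornified envelope precursor involucrin, was at 23.4, 20.1, 16.2 and 20.9 CPM in AdAC CellC and had a single count in AdAC direct, giving a ratio of 2611 (95% counting interval 469 to 103135). Sfn, the epithelial 14-3-3 sigma protein, was already present before culture, at 2.7, 2.97, 2.88 and 2.93 CPM in AdAC direct, and was at 23.4, 19.4, 28.6 and 26.4 CPM after it. Its ratio was 8.52, or 8.04 without replicate 3. Per kilobase of exon, the order in AdAC CellC was led by Krt8 (25.6 ± 11.2 CPM per kb), Krt18 (25.6 ± 10.6), Gprc5a (22.0 ± 3.10), Cldn12 (19.5 ± 1.37), Cldn4 (16.5 ± 8.96) and Sfn (15.2 ± 2.47). The ranges of neighbours overlapped along this order, and without replicate 3 it was Gprc5a (22.1 ± 3.77), Krt18 (20.3 ± 1.20), Cldn12 (20.1 ± 0.820), Krt8 (20.1 ± 1.43), Sfn (14.3 ± 2.18) and Cldn4 (12.1 ± 1.63). In AdAC direct, Cldn10 (73.1 ± 6.51 CPM per kb) led, before Cldn5 (10.6 ± 0.766) and Krt18 (8.49 ± 0.159).

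**Figure D2:**
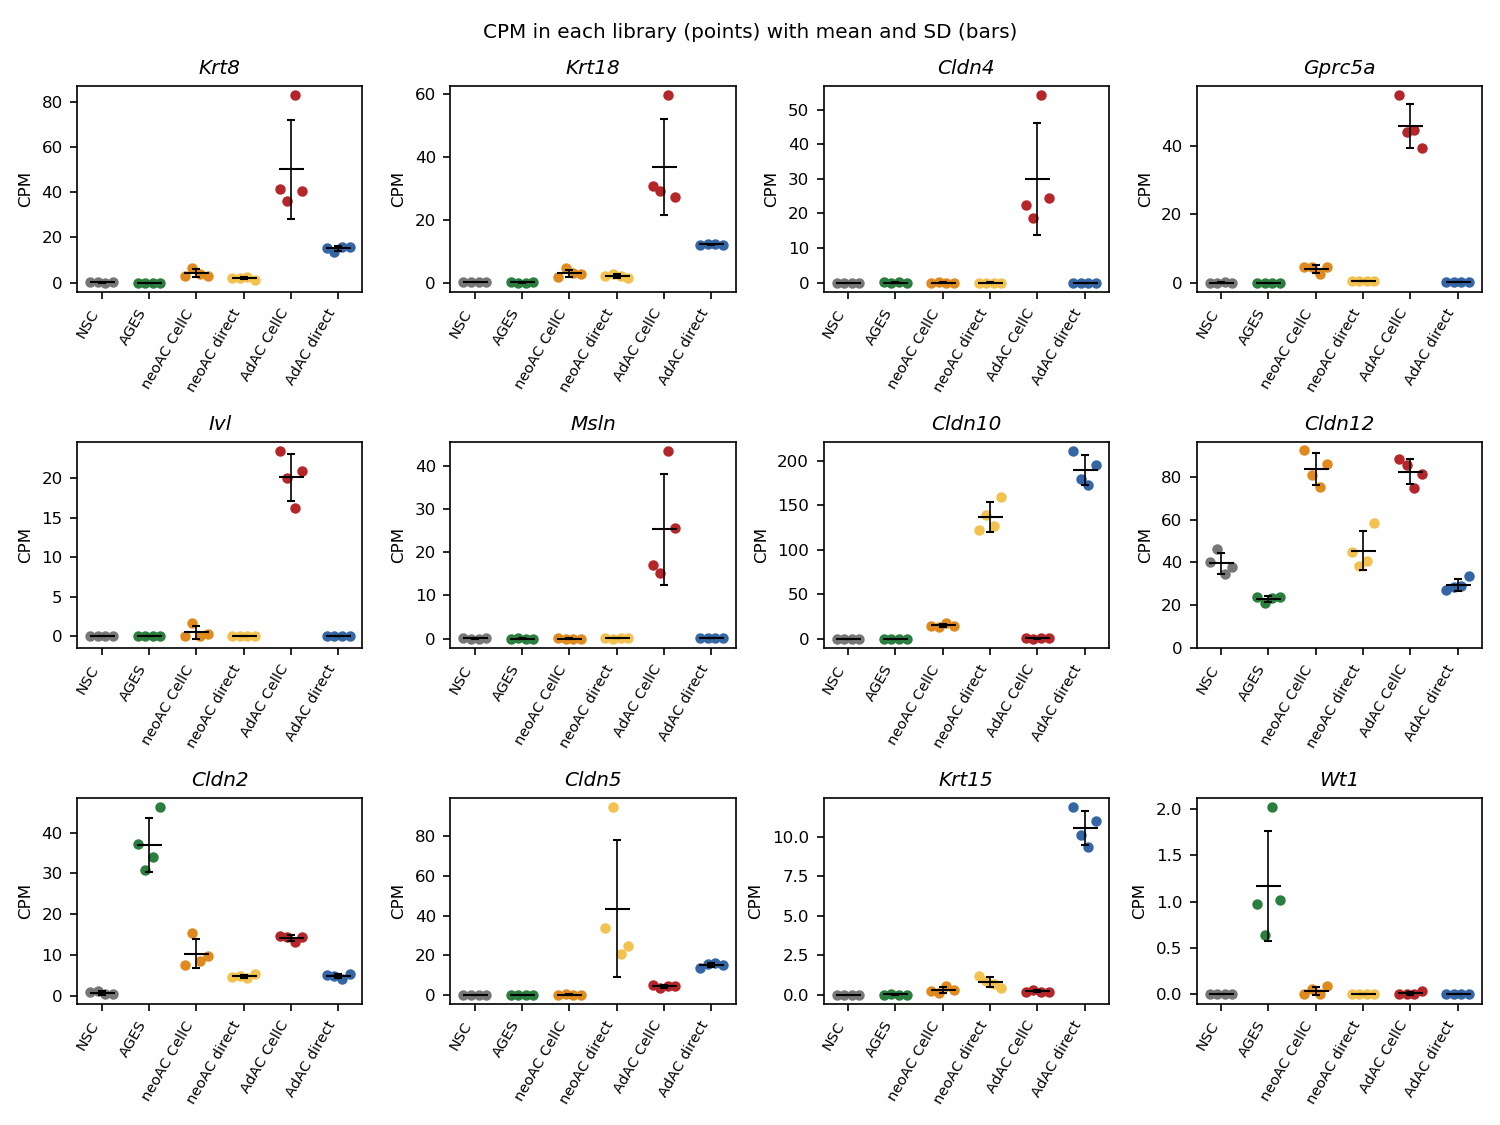
CPM of 12 of the genes in each library (points, 4 per group) with the group mean and SD (bars). Krt8, Krt18, Cldn4, Gprc5a, Ivl and Msln are highest in AdAC CellC, Cldn10 and Krt15 in AdAC direct, Cldn5 in neoAC direct, and Cldn2 and Wt1 in AGES, whereas Cldn12 lies above 20 CPM in all 6 groups.

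Within AdAC CellC, the 4 libraries split these genes. Of the 23 genes that passed the filter and had a mean of at least 1 CPM there, 11 were at least 1.5 times higher in replicate 3 than in the mean of the other 3 libraries, against 1.93% of 14692 genes. They were Cldn3 (2.83 times), Cldn7, Cldn6, Epcam, Cldn4, Krt17, Krt7, Msln, Krt8, Krt18 and Krt19 (1.59 times). For replicates 1, 2 and 4 the count was 0 of 23, with 1.33%, 0.701% and 0.681% of all genes, although Krt14, which did not pass the filter, was high in replicates 3 and 4. The rest of the genes did not follow. Sfn was 1.24 times, Gprc5a 0.970 times, Cldn2 0.910 times, Ivl 0.755 times and Cldn1 0.674 times the mean of the other libraries.

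Genes outside the set that were high in the same library included Cdh1, the epithelial cadherin (2.54 times), Lad1 (2.42 times), Dsp, the desmosome plaque protein desmoplakin (2.38 times), Esrp1, an epithelial splicing regulator (2.38 times), Spint1 (2.15 times), St14 (2.05 times) and Grhl2 (2.00 times). The cornified envelope genes did not share this order, with Perp at 1.06 times, Sprr1a at 1.18 times and Tgm1 at 0.981 times. The summed oligodendrocyte markers were also highest in replicate 3, at 3861, 8159.7, 10037 and 7573 CPM. The summed choroid plexus markers (523, 507, 343 and 323 CPM) and ependymal markers (287, 373, 264 and 337 CPM) were not. The part of these other cells in the levels was not tested. Replicate 3 had the largest total of the group, but CPM are scaled to it.

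**Figure D3:**
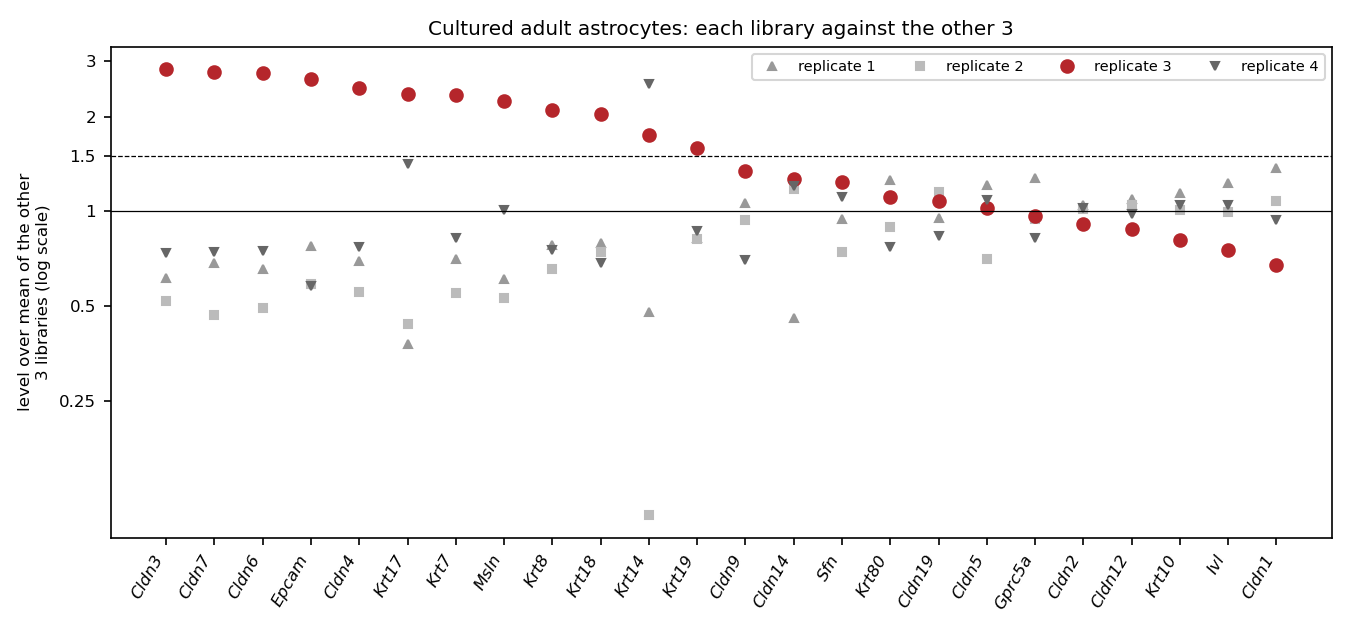
Level of each gene with a mean of at least 1 CPM in AdAC CellC, in each library over the mean of the other 3 (log scale). Replicate 3 (red circles) lies above the dashed line at 1.5 for 12 genes from Cldn3 to Krt19, and near or under 1 for genes such as Gprc5a, Ivl and Cldn1.

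Neonatal cultures were compared with directly isolated cells in the same way. Cldn4, Krt17 and Cldn6 had at most 5 counts in each neonatal group, so nothing is read from the counts and medians that follow. Against neoAC direct, 11 of the 33 genes were past the threshold as higher in neoAC CellC and 7 as lower, where 34.4% and 31.3% of all genes were. The median log2 fold change of the 33 was 0.48, beside 0.04 for all genes. Gprc5a was at 4.49, 4.69, 2.41 and 4.52 CPM in neoAC CellC and at 0.488, 0.443, 0.510 and 0.532 CPM in neoAC direct, a ratio of 8.17. Cldn1 was at 5.27, 11.3, 6.79 and 7.65 CPM against 1.69, 3.52, 1.90 and 2.96 CPM, with a ratio of 3.08, and Sfn at 3.93, 3.98, 4.13 and 4.05 CPM against 1.72, 1.97, 2.58 and 1.36 CPM, with a ratio of 2.11. These 3 genes were higher after culture at both ages, without overlap between the groups. Other genes of the set, such as Krt8, Cldn2, Cldn9, Cldn12 and Cldn19, were so too. How many of all genes separate in this way was not counted, here or for other groups said not to overlap.

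Krt8, Krt18, Cldn4 and Cldn6 were lower in the neonatal than in the adult cultures. Krt8 was at 3.09, 6.71, 3.66 and 2.97 CPM in neoAC CellC and 2.15, 1.97, 2.45 and 1.26 CPM in neoAC direct, where the groups did not overlap. Krt18 was at 1.65, 4.56, 3.08 and 2.63 CPM against 2.18, 2.85, 2.07 and 1.46 CPM, with overlapping libraries. Cldn4, Cldn6, Krt17 and Krt7 did not exceed 0.388 CPM in any neonatal library, and Epcam did not exceed 0.683 CPM. Ivl was at 0.0312, 1.73, 0.0832 and 0.249 CPM in neoAC CellC, so that nearly all of its mean came from replicate 2. That library was also the highest of its group in Cldn1 and Cldn2 (7.58, 15.5, 8.70 and 9.70 CPM), in Krt8 and in the choroid plexus gene Ttr (398, 1267, 612 and 519 CPM). The part of choroid plexus cells in these levels was not tested.

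The cultured groups of the 2 ages were also set side by side. Most of the named genes had their highest mean in AdAC CellC, so nothing is read from the counts and median that follow. In neoAC CellC against AdAC CellC, 5 of the 33 were past the threshold as higher (28.5% of all genes) and 22 as lower (35.2%), and the median log2 fold change was -3.32 (-0.08 for all genes). The ratio of AdAC CellC to neoAC CellC was 12.2 for Krt8, 12.3 for Krt18, 11.4 for Gprc5a, 41.4 for Epcam, 135 for Krt7 and 181 for Krt19. Without replicate 3 of AdAC CellC it was 9.57 for Krt8, 9.78 for Krt18, 11.4 for Gprc5a, 29.3 for Epcam, 101 for Krt7 and 158 for Krt19. With all libraries it was 2.50 for Cldn1 and 6.08 for Sfn, the latter 5.73 without replicate 3. Cldn12, an atypical claudin, was the exception among the abundant genes, with 83.7 ± 7.39 CPM and 82.4 ± 5.78 CPM and overlapping libraries. It was lower in neoAC direct (45.5 ± 8.98 CPM), NSCs (39.6 ± 4.95 CPM), AdAC direct (29.4 ± 2.95 CPM) and AGES (23.1 ± 1.37 CPM).

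The directly isolated groups were compared in the same way. Some of the 33 genes, such as Cldn4 and Krt17, were near the floor in both, so nothing is read from the counts and median that follow. Of the 33 genes, 7 were past the threshold as higher in neoAC direct than in AdAC direct (35.0% of all genes) and 10 as lower (36.4%), with a median of 0.03 (0.00 for all genes). Krt8 and Krt18 were already higher in the adult, by ratios of 7.74 and 5.70, without overlap. Krt19 (5.12) and Epcam (2.59) had the same direction, whereas Cldn1 was higher in the neonatal cells, by a ratio of 4.61. Gprc5a was low at both ages but also higher in the neonatal cells, by 3.34.

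Some genes were lower after culture. Cldn10, the pore-forming claudin of astrocytes (chr14:118787908-118875489, plus strand), was the most abundant gene of the set. In AdAC direct it was at 210.4, 179.5, 173 and 195 CPM, and in AdAC CellC at 0.491, 0.175, 0.345 and 0.559 CPM. The ratio of means was 483, and the groups were far apart. In neoAC direct Cldn10 was at 122, 139, 127 and 159.5 CPM and in neoAC CellC at 14.2, 13.6, 17.9 and 14.7 CPM, a ratio of 9.07. AGES (0.117, 0.174, 0.192 and 0.263 CPM) and NSCs (0.0978, 0.121, 0.127 and 0.0669 CPM) were near the floor, although AGES had the highest summed astrocyte markers. AdAC CellC, where Cldn10 was under 0.6 CPM, had the lowest sum of these markers.

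Krt15, a type I chain of basal epidermal cells, was at 11.9, 10.1, 9.39 and 11 CPM in AdAC direct and at 0.184, 0.291, 0.186 and 0.155 CPM in AdAC CellC, a ratio of 51.9. It lies on chromosome 11 with Krt14, Krt17 and Krt19, which had the opposite order in these groups. Ependymal markers summed to 1519 to 1733 CPM in AdAC direct and to 264 to 373 CPM in AdAC CellC. They also summed to 1596 to 2033 CPM in neoAC CellC, where Krt15 was at 0.131 to 0.554 CPM. The part of ependymal cells in Krt15 was not tested. Cldn14 was at 7.45, 5.87, 7.37 and 7.56 CPM in AdAC direct and 1.78, 3.79, 3.98 and 3.85 CPM in AdAC CellC, and at most 0.0624 CPM in the other groups. Krt80, at 1.95 to 2.26 CPM and 2.30 to 3.32 CPM, was likewise higher in both adult groups than in neoAC direct.

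Krt1 and Krt10 form a pair in the epidermis but did not follow each other here. Krt1 was at 4.06, 3.66, 3.77 and 1.93 CPM in neoAC direct and 1.03, 1.18, 1.30 and 0.887 CPM in neoAC CellC, and was at or under 0.587 CPM in every other library. Krt10 was between 3.05 and 8.70 CPM in all 24 libraries, with its lowest mean in AdAC CellC (3.59 ± 0.384 CPM) and its highest in AGES (8.19 ± 0.486 CPM). Krt28, a hair follicle chain, was at 0.699 to 1.56 CPM in neoAC direct and 0.705 to 1.10 CPM in AdAC direct, and lower in both cultures. Krt10 overlaps a gene on the opposite strand (Gm11940, at most 2.48 CPM as a group mean), and whether the counting used strand is not stated.

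Cldn5 varied together with endothelial markers among the neoAC direct libraries. It was at 33.9, 94.6, 20.4 and 24.5 CPM there, with replicate 2 far above the rest. The 10 endothelial markers summed to 147, 362, 95.4 and 144 CPM in the same libraries, and Pecam1 alone was at 13.3, 34.8, 7.68 and 12.8 CPM. Cldn5 was at 13.5, 15.6, 16.0 and 15.2 CPM in AdAC direct and 4.76, 3.15, 4.22 and 4.41 CPM in AdAC CellC, where the endothelial sums were 114 to 118 CPM and 83.8 to 93.1 CPM. In neoAC CellC it was at 0.0277 to 0.157 CPM and Pecam1 at 0.281 to 0.471 CPM, while the sum of the list was 87.7 to 137 CPM, mostly Kdr and Slco1a4. The log2 fold change of neoAC direct over AdAC direct was 1.53 ± 0.32, and 0.80 without replicate 2 of neoAC direct. The part of endothelial cells in Cldn5 was not tested.

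**Figure D4:**
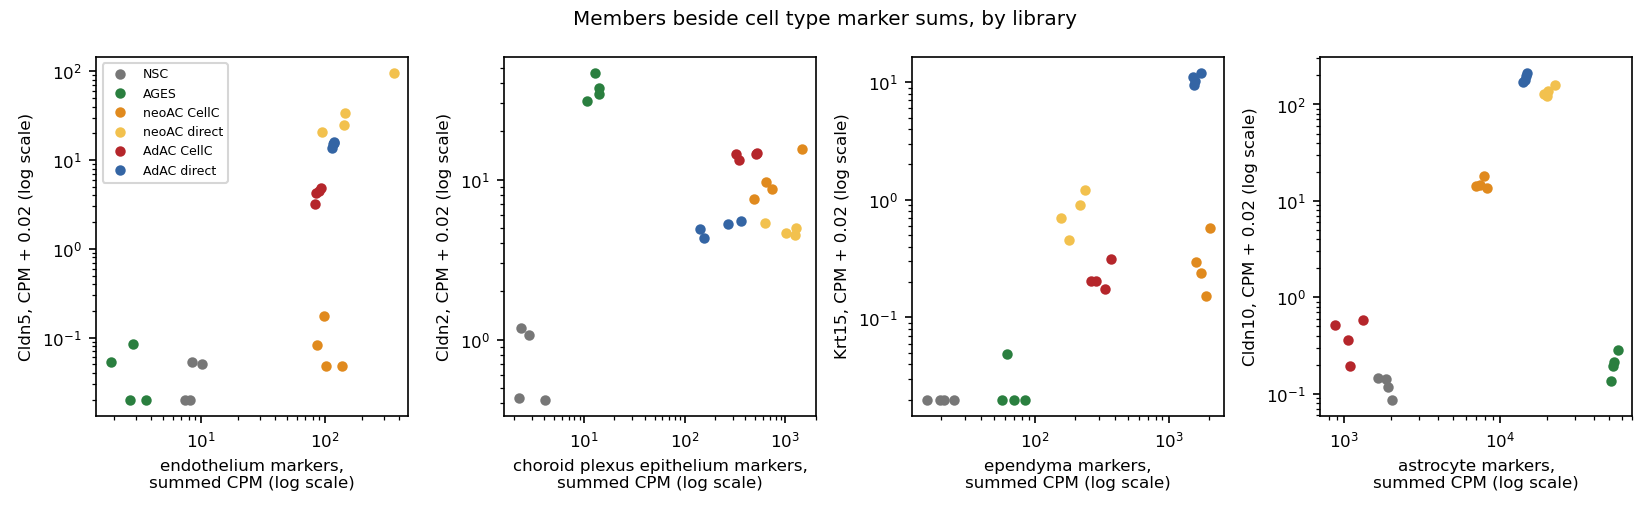
Levels of Cldn5, Cldn2, Krt15 and Cldn10 (CPM + 0.02, log scale) against the summed CPM of a list of cell type markers (log scale), 1 point per library, colored by group. Cldn5 is highest in the neoAC direct library with the highest endothelial sum, Cldn2 is highest in AGES at low choroid plexus sums, and Cldn10 is near the floor in AGES at the highest astrocyte sums.

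AGES were then compared with the NSCs they were made from. Krt7, Cldn3 and Krt1 are among the 33 genes but had no count in either group. Such genes could not be called, so nothing is read from the counts and medians that follow. Of the 33, 6 were past the threshold as higher in AGES (31.7% of all genes) and 2 as lower (34.0%), and both medians were 0.00. Cldn2, a cation and water pore, was at 37.1, 30.8, 34.1 and 46.2 CPM in AGES and at 1.04, 1.15, 0.414 and 0.401 CPM in NSCs, a ratio of 49.2. No other group reached the AGES level, the next being AdAC CellC at 14.2 ± 0.667 CPM. The choroid plexus gene Ttr was at 0.757 to 1.04 CPM in AGES. All 12 choroid plexus markers summed to 10.6 to 14.1 CPM in AGES, where 1 of them had a mean of at least 10 CPM, and to 2.23 to 4.05 CPM in NSCs. The part of choroid plexus cells in Cldn2 was not tested.

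Cldn9 was at 12.1, 5.34, 6.76 and 12.9 CPM in AGES and had 3 counts in NSCs, a ratio of 387 (95% counting interval 132 to 1874). Cldn19, known from kidney and nerve, was at 13.2, 15.5, 5.93 and 2.86 CPM in AGES and 0.0326 to 0.167 CPM in NSCs, so the AGES libraries themselves spanned a wide range. Neonatal astrocytes held Cldn19 at 10.7 to 15.7 CPM in culture and 9.17 to 10.3 CPM directly, above AdAC CellC (4.47 to 5.68 CPM) and AdAC direct (1.58 to 2.44 CPM). Wt1, a transcription factor of kidney and mesothelium, was at 0.975, 0.638, 2.02 and 1.02 CPM in AGES and had no count in NSCs, neoAC direct or AdAC direct, which makes it at least 48.4-fold higher in AGES than in NSCs (floor of 3 counts over the group). Krt80 was at 0.117, 0.0870, 0.897 and 0.987 CPM in AGES, with replicates 3 and 4 above replicates 1 and 2.

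AGES were also compared with the cultured primary astrocytes. Most of the named genes had their highest mean in AdAC CellC, so nothing is read from the counts and medians that follow. In AGES against AdAC CellC, 5 of the 33 were past the threshold as higher (31.0% of all genes) and 27 as lower (45.2%), with a median log2 fold change of -7.18 (-0.23 for all genes). Gprc5a and Krt7 had no count in AGES, which makes them at least 1856-fold and 1088-fold lower than in AdAC CellC by the same floor (1870.2 and 814 without replicate 3). The ratio of AdAC CellC to AGES was 1216 for Krt8 and 489 for Krt18, or 953 and 388 without replicate 3. These ratios rest on 5 counts of Krt8 and 9 of Krt18 in all AGES libraries together. Such means (0.0413 and 0.0752 CPM) lie under the floor of 3 counts in a library, so the ratios are rough. In AGES against neoAC CellC, 3 were past the threshold as higher (34.1%) and 18 as lower (40.5%), with a median of -1.86 (-0.07 for all genes). Cldn2 was higher in AGES than in both cultured groups, by ratios of 2.61 and 3.57, and Cldn9 by 4.05 and 3.46. These comparisons share the AGES libraries.

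The other 49 genes, 38 keratins, 10 claudins and Upk3b, stayed under 1 CPM in every group, the highest group mean being 0.911 CPM. They included most keratins of the epidermis and hair. A count of 3 in a library equals 0.0786 to 0.117 CPM, so lower levels could not be told from 0.

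Genes that work with keratins and claudins were then examined in 4 lists of 70 genes, 60 of which were tested, with edgeR's quasi-likelihood test and Benjamini-Hochberg adjustment over all genes. These lists hold none of the 78 genes but were also drawn up with earlier results of these data known, so their counts are no independent support for a direction. Up to 6 genes of each list, those with the highest group mean, are given with values. Of the 20 tight junction partners, 10 rose and 8 fell in AdAC CellC against AdAC direct (38.8% and 39.2% of all genes), with a median log2 fold change of 0.34, and 8 rose and 4 fell in neoAC CellC against neoAC direct, where 34.4% and 31.3% of all genes did (median 0.13). Jam3, a junctional adhesion molecule, fell in adult culture (log2 fold change -1.20 ± 0.08, edgeR adjusted p = 3.4e-13) and rose in neonatal culture (1.46 ± 0.08, adjusted p = 2.55e-14). The difference between the ages was itself past the threshold (interaction -2.66 ± 0.11, adjusted p = 2.23e-16). Mpdz, a scaffold that binds claudins, had the same pattern (-0.46 ± 0.06 and 0.68 ± 0.06, interaction -1.13 ± 0.09, adjusted p = 3.12e-11).

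Tjp1, the scaffold ZO-1, rose in neonatal culture (0.60 ± 0.07, edgeR adjusted p = 7.01e-08), and its adult change (0.17 ± 0.07, adjusted p = 0.034) lost the threshold when any 1 replicate number was left out. Jam2 fell in adult culture (-0.72 ± 0.10, adjusted p = 6.61e-07) and was at -0.22 ± 0.10 in neonatal culture (adjusted p = 0.0639). Ildr2 rose in adult culture (0.54 ± 0.11, adjusted p = 0.000117) and was at -0.06 ± 0.11 in the neonatal one (adjusted p = 0.656). In AGES against NSCs, 9 of the 20 rose and 3 fell (31.7% and 34.0% of all genes), and the gain was largest among the named genes for Ildr2 (2.46 ± 0.12, adjusted p = 1.34e-15) and Mpdz (1.74 ± 0.06, adjusted p = 7.1e-18). The scaffolds were present at high levels in all groups, with Tjp1 lowest in AGES (191 ± 13.6 CPM) and highest in neoAC CellC (315 ± 29 CPM).

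Of 17 tested genes of desmosomes and hemidesmosomes, which anchor keratins at the membrane, 11 rose and 5 fell in adult culture (median 0.92) and 10 rose and 1 (Dsp) fell in neonatal culture (median 1.01). Of all genes, 38.8% rose and 39.2% fell in the former and 34.4% and 31.3% in the latter. Plec, the linker plectin, rose at both ages (1.29 ± 0.12, edgeR adjusted p = 2.53e-10, and 0.33 ± 0.12, adjusted p = 0.0152), although its neonatal call was lost without replicate 4 (adjusted p = 0.0578). Itgb4, the integrin of hemidesmosomes, fell in adult culture from 199 ± 10.8 CPM to 52.9 ± 15.6 CPM (-1.91 ± 0.27, adjusted p = 9.41e-07). In neonatal culture it rose (0.77 ± 0.29, adjusted p = 0.0232), a call lost without replicate 1 or 3 (adjusted p = 0.0764 and 0.0916). Its partner Itga6 rose in adult culture (0.41 ± 0.15, adjusted p = 0.0126, but adjusted p = 0.11 without replicate 1). Jup, plakoglobin, fell in the adult cells (-0.90 ± 0.22, adjusted p = 0.000811) and rose in the neonatal ones (1.08 ± 0.23, adjusted p = 0.000246).

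Pkp4, a plakophilin-like junction protein, rose at both ages (0.46 ± 0.11, edgeR adjusted p = 0.000693, and 1.30 ± 0.11, adjusted p = 2.97e-10), and Dst, dystonin, fell in the adult cells (-0.64 ± 0.08, adjusted p = 9.7e-08). AGES held the highest levels of Plec (893 ± 43.1 CPM) and Itga6 (494 ± 59.5 CPM) of all groups, with log2 fold changes over NSCs of 4.05 ± 0.13 (adjusted p = 4.87e-19) and 3.75 ± 0.16 (adjusted p = 1.64e-16). In that comparison 7 of the 17 rose and 3 fell (31.7% and 34.0% of all genes). Plectin, dystonin and plakoglobin also serve cells without keratins.

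Among 16 tested epithelial regulators and surface proteins, 12 rose and 2 fell in adult culture (median 1.97), and 4 rose and 5 fell in neonatal culture (median -0.06). The shares of all genes were 38.8% and 39.2% in adult and 34.4% and 31.3% in neonatal culture, so the neonatal counts were at or under them. Cdh1, E-cadherin, was at 21.2, 22.1, 56.8 and 23.7 CPM in AdAC CellC and 0.480 to 1.06 CPM in AdAC direct (5.57 ± 0.39, edgeR adjusted p = 2.78e-11, and 5.11 without replicate 3 of AdAC CellC). In neonatal culture it fell (-2.31 ± 0.46, adjusted p = 0.000159), and the ages differed (interaction 7.89 ± 0.59, adjusted p = 1.51e-10). St14, the surface protease matriptase, was at 21.6, 21.4, 44.0 and 21.3 CPM in AdAC CellC and rose at both ages, more in the adult cells (5.24 ± 0.29, adjusted p = 1.92e-14, and 1.44 ± 0.26, adjusted p = 2.51e-05, interaction 3.80 ± 0.38, adjusted p = 3.11e-09). Its inhibitor Spint2 rose more in the neonatal ones (0.60 ± 0.13, adjusted p = 0.000136, and 2.46 ± 0.14, adjusted p = 5.18e-14, interaction -1.86 ± 0.18, adjusted p = 2.15e-09).

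The transcription factors of this list did not move together. Klf4 rose in adult culture (1.20 ± 0.16, edgeR adjusted p = 3.4e-07) and fell in neonatal culture from 217 ± 34.3 CPM to 8.37 ± 1.20 CPM (-4.70 ± 0.18, adjusted p = 1.19e-16, interaction 5.90 ± 0.24, adjusted p = 2.98e-16). Trp63, the p63 gene of stratified epithelia, had the opposite pattern, falling from 10.9 ± 1.45 CPM to 1.03 ± 0.274 CPM in the adult cells (-3.39 ± 0.26, adjusted p = 1.19e-11) and rising in the neonatal ones (2.33 ± 0.27, adjusted p = 4.05e-08, interaction -5.72 ± 0.38, adjusted p = 1.09e-12). Grhl1 fell at both ages (-3.63 ± 0.18, adjusted p = 2.85e-15, and -3.24 ± 0.18, adjusted p = 4.75e-14), with no difference between them past the threshold (interaction -0.39 ± 0.25, adjusted p = 0.168). AdAC CellC, the group with the highest summed keratin level, had Trp63 at 0.838 to 1.43 CPM and Grhl1 at 1.87 to 2.39 CPM. In AGES against NSCs, 3 of the 16 rose (Klf5, Grhl1 and Trp63) and 2 fell (Klf4 and Grhl3), against 31.7% and 34.0% of all genes.

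The cornified envelope list had 7 tested genes, of which 6 rose in adult culture and none fell (median 4.75), and 3 rose in neonatal culture and none fell (median 0.77), where 38.8% and 34.4% of all genes rose. Perp, a p53 target of desmosomes, was at 39.3, 37.4, 37.3 and 28.5 CPM in AdAC CellC and at 3.00 to 4.15 CPM in AdAC direct (3.29 ± 0.21, edgeR adjusted p = 2.44e-13). It also rose in neonatal culture (0.77 ± 0.21, adjusted p = 0.00225, but adjusted p = 0.0723 without replicate 2). Tgm1, the transglutaminase that links involucrin into the envelope, rose at both ages (4.75 ± 0.36, adjusted p = 8.79e-12, and 1.98 ± 0.33, adjusted p = 1.19e-05). Sprr1a, an envelope precursor also known from injured neurons, was at 9.64, 6.30, 10.4 and 10.6 CPM in AdAC CellC and at most 0.25 CPM in any other library (8.42 ± 0.53, adjusted p = 2.2e-13).

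Sprr3 was at 4.60, 2.57, 3.21 and 3.94 CPM in AdAC CellC and had no count in AdAC direct (adjusted p = 6.27e-10 by edgeR). Cdsn, corneodesmosin, rose in adult culture (6.41 ± 0.69, edgeR adjusted p = 9.55e-09) and in AGES over NSCs (5.97 ± 0.64, adjusted p = 1.12e-08), where its libraries varied (3.51, 2.32, 14.1 and 7.04 CPM). Lor, loricrin, rose in adult culture (4.00 ± 0.45, adjusted p = 1.36e-08) to 1.01, 1.14, 0.930 and 1.09 CPM and fell in AGES against NSCs (-2.08 ± 0.31, adjusted p = 1.7e-06). Over the 24 named genes of the 4 lists, the difference between adult and neonatal culture was past the threshold for 20, where 68.6% of all genes were. It was above 0 for 10 (35.4% of all genes) and below 0 for 10 (33.2%). Sprr3 (interaction 8.78 ± 2.75, adjusted p = 0.0098) was among them, but not without replicate 2 (adjusted p = 0.9998).

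**Figure D5:**
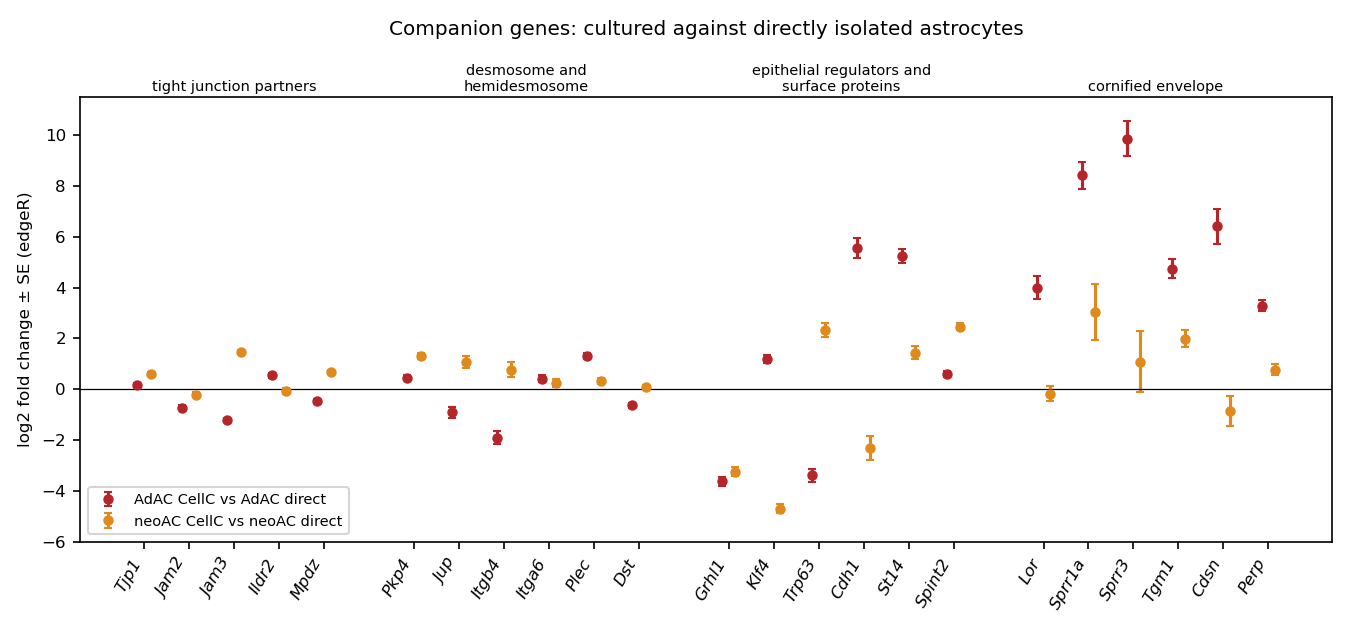
Log2 fold change ± SE (edgeR) of 23 named genes of the 4 lists, in cultured against directly isolated adult (red) and neonatal (orange) astrocytes. The cornified envelope genes lie above 3 in the adult cells, and the tight junction partners lie within 2 of 0 at both ages. Cdh1 and Klf4 each lie above 0 in the adult and below 0 in the neonatal cells. Genes such as Trp63, Jam3 and Itgb4 lie the other way round.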

How the data were processed

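RNA was sequenced from 24 libraries of 6 groups (TruSeq Stranded mRNA kit). According to the methods of the study and the processing notes, the authors demultiplexed reads with bcl2fastq 2.20, aligned them to GRCm38 with STAR 2.7.3a and counted them per gene of Gencode vM12 with featureCounts, and strand and pair settings are not given in the sources used here. The deposited values are raw counts for 49671 genes. Here, the counts were tested with edgeR 4.0.16 (R 4.3.3, limma 3.58.1), using filterByExpr, which kept 19691 genes, TMM scaling and a quasi-likelihood fit of all groups, with Benjamini-Hochberg adjustment and a threshold of 0.05. SE is the absolute log2 fold change over the square root of F. The fit was tested on simulated data. CPM use TMM-scaled totals, and kb are merged exons of Gencode vM21, in which 99.48% of genes were found.

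The genes and lists were chosen with earlier results of these data known. Genes of the set with a group mean of at least 10 CPM, and single genes of at least 1 CPM, are given by library, and others of at least 1 CPM by group. Of each companion list, the 6 genes with the highest group mean were taken, 1 of which is not reported here; further genes high in replicate 3 of AdAC CellC and Ttr and Pecam1 were picked after their values were seen. Where a group had no count, a ratio is a bound at 3 counts over the group, and for 1 to 3 counts it has a 95% exact Poisson interval for counting error only. Replicates of NSCs and AGES come from 1 line, so that p-values there measure the spread between cultures. No 2 libraries of a group agreed within sampling noise (lowest chi-square per gene 6.066). Alternatives were DESeq2 size factors, library size only, no filter, the DESeq2 1.42.0 Wald test, a fold change criterion, fits of 2 groups with and without the replicate number as a block, and each replicate left out. Leaving out replicate 3 of AdAC CellC or replicate 2 of neoAC direct was chosen after seeing the data.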

Additional observations from a re-analysis of the deposited data

Results flagged for a closer look

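The named companion genes were scanned, with the genes of the set that reached a group mean of 10 CPM and the single genes that reached 1 CPM. Cldn3, with a highest group mean of 6.42 CPM, was thus not scanned, and groups with a mean under 1 CPM were left out. In each group of 4 libraries, the distance of the highest or lowest library from its nearest neighbour was divided by the range of the group. This was set against Dixon's critical value. Of 158 such groups, 18 had a library past it, or 11.4%. The value passes about 1 in 20 groups by chance, but many of the genes were chosen with these levels known and vary together, so the share is a description and no test. In 7 of these it was replicate 3 of AdAC CellC, which was the highest library in Krt8 at 82.7 CPM (others 36.1 to 41.4 CPM), in Krt18 at 59.6 CPM (others 27.4 to 30.9 CPM), in Cldn4 at 54.2 CPM (others 18.7 to 24.6 CPM), in Epcam at 31.2 CPM (others 10.8 to 13.7 CPM), in Krt19 at 15.6 CPM (others 9.62 to 10.1 CPM), in Cdh1 at 56.8 CPM (others 21.2 to 23.7 CPM) and in St14 at 44.0 CPM (others 21.3 to 21.6 CPM). The simple keratins, Cldn4 and the epithelial adhesion genes Epcam and Cdh1 thus stood apart in the same library.

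In neoAC CellC, replicate 1 was the lowest library in Mpdz at 176 CPM (others 195 to 197 CPM) and in Pkp4 at 145 CPM (others 182 to 183 CPM), and the highest in St14 at 6.21 CPM (others 4.30 to 4.54 CPM) and Tgm1 at 6.30 CPM (others 2.55 to 2.93 CPM). Replicate 2 of that group was the highest in Perp at 6.92 CPM (others 3.58 to 4.09 CPM), and replicate 3 the lowest in Gprc5a at 2.41 CPM (others 4.49 to 4.69 CPM). In neoAC direct, replicate 4 was the highest in Jam2 at 422 CPM (others 341 to 352 CPM) and in Perp at 3.46 CPM (others 2.41 to 2.55 CPM). In AdAC CellC, replicate 1 was the lowest in Jam3 at 73.5 CPM (others 87.6 to 90.5 CPM) and the highest in Klf4 at 33.0 CPM (others 28.9 to 29.5 CPM). Replicate 3 of the NSCs was the lowest in Lor at 1.46 CPM (others 2.7 to 2.81 CPM).

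The log2 fold change of culture differed between the ages for 20 of the 24 named companion genes by the interaction term of edgeR, with adjusted p-values of at most 0.0098. The adult minus the neonatal change was above 0 for Ildr2 (0.60), Plec (0.96), Klf4 (5.90), Cdh1 (7.89), St14 (3.80), Lor (4.17), Sprr3 (8.78), Tgm1 (2.77), Cdsn (7.26) and Perp (2.52). It was below 0 for Tjp1 (-0.43), Jam2 (-0.50), Jam3 (-2.66), Mpdz (-1.13), Pkp4 (-0.84), Jup (-1.98), Itgb4 (-2.67), Dst (-0.72), Trp63 (-5.72) and Spint2 (-1.86). The first group holds the named cornified envelope genes except Sprr1a, with the surface genes Cdh1 and St14, and the second holds 4 of the 6 named tight junction partners. Sprr3 had no count in AdAC direct and its value depends on the prior count of the fit.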

How the results depend on the processing

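Counts of genes past the threshold kept within 1.5 times the main count in 223 of 230 recomputations, and no called value reversed. The other 7 were these. In AGES against neoAC CellC, 13 of the keratins, claudins and single genes were past the threshold in a fit of these 2 groups with the replicate block (21 in the main fit of all groups), where 17 were tested. With an absolute log2 fold change over 1 required, 8 tight junction partners were left in adult culture (from 18) and 6 in neonatal culture (from 12). In AGES against NSCs, the fit of the 2 groups alone gave 5 desmosome and hemidesmosome genes with and 5 without the replicate block (from 10), with 8 tested, and 3 epithelial regulators and surface proteins with and 3 without it (from 5), with 4 tested. Leaving out 1 replicate number gave 30 to 31 of the 33 genes in adult culture, 15 to 18 in neonatal culture, 7 to 8 in AGES against NSCs, and 19 to 20 of the interactions. Deviations of same-numbered libraries correlated between -0.0953 and 0.106, so no pairing by replicate number was seen. Such values cannot show whether these libraries shared an isolation or culture. The block changed no other count by over 1.5 times. Of 1882 recomputed fold changes of single genes, 1740 kept direction and side of the threshold or, for genes of the set, moved little. Moving little meant by at most the SE of the main fit times the square root of 2. A further 31 lost a call, 11 gained one and 100 moved otherwise. Scaling by library size alone shifted the median of all genes to 0.27 in neonatal culture, -0.45 in AGES against AdAC CellC, -0.37 in AGES against neoAC CellC and -0.10 in the interaction, and DESeq2 size factors shifted it to -0.19 and -0.14 in the AGES comparisons. Under library size alone the uncalled changes of Jam2 and Ildr2 in neonatal culture took the other sign (0.01 and 0.17). The call of Tjp1 in adult culture was lost under DESeq2 size factors and without the filter on low counts. Depth limits the 49 genes under 1 CPM, whose differences were mostly not detectable.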

Other observations

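Levels of the marker lists not given above were as follows. The 5 pericyte markers summed to 281 to 572 CPM in neoAC direct, with the highest value in replicate 2, to 255 to 283 CPM in AdAC direct and to 136 to 170.2 CPM in AdAC CellC. The 6 microglia markers summed to 10.8 to 54.7 CPM in neoAC direct, again highest in replicate 2, and to 15.8 to 27.3 CPM in AdAC CellC. The 6 neuronal markers summed to 108 to 182 CPM in AdAC CellC and to 45.2 to 56.6 CPM in AdAC direct. The 7 neural stem cell markers summed to 6152 to 7913 CPM in neoAC direct and 2709 to 3453 CPM in NSCs, above the 587 to 672 CPM of AdAC direct.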
